A study of Homo sapiens with 48 samples.

Results

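NGP, a human neuroblastoma cell line, was kept in DMSO for 3 or for 6 days, and the libraries made from these cultures before any actinomycin D were compared. The members were chosen by sample title alone (NGP, DMSO, 0h) and not by any measured value. They were 4 of the 48 libraries of the series, 2 at 3 days and 2 at 6 days. The labels give all 4 as WT in genotype and as MYCN-amplified, and all carried the solvent DMSO and no drug. The whole study exposed NGP and Kelly, another MYCN-amplified neuroblastoma line, to DMSO or to 8 µM STM2457, an inhibitor of the m6A RNA methyltransferase METTL3. After 3 or 6 days actinomycin D, which blocks transcription, was given at 10 µg/ml and cells were taken after 0, 3 or 6 h. Poly(A) RNA was sequenced, with 2 libraries for each combination. Cells grew in RPMI1640 with heat-inactivated serum and added glutamine. The labels do not say how densely cells were seeded, whether medium was renewed, or whether the replicates were separate cultures, so the p-values measure the spread between these libraries, which may be technical. Duration and anything else that differed between the harvests cannot be told apart, and the labels give no batch or date.

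Neuroblastoma cells resemble arrested precursors of sympathetic neurons, and adrenergic lines such as NGP are held in that state by transcription factors of a circuit that includes HAND2 and GATA3. In a culture that is left to grow, amino acids, glucose and growth factors are used up while cells crowd. When amino acids run short, uncharged tRNA activates the kinase GCN2, translation initiation is lowered, and the transcription factor ATF4 is made in larger amounts. ATF4 switches on transporters, enzymes of amino acid synthesis and aminoacyl-tRNA synthetases, together known as the integrated stress response.

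The 4 libraries held 11993189 and 12834226 fragments in genes at 3 days and 16999084 and 14641879 at 6 days. ERCC spike-ins took 0.283 and 0.291% at 3 days and 0.325 and 0.329% at 6 days. Mitochondrial mRNAs took 4.03 and 4.21% at 3 days and 5.25 and 4.62% at 6 days. These shares were higher in both 6-day libraries, and their part in the gene results was not tested. Levels below are CPM, the counts of a gene scaled to a common library size after TMM scaling, which assumes that the typical gene does not change. Of 11 adrenergic markers, 10 exceeded 10 CPM in all 4 libraries, and their summed level was 4033 and 3971 CPM at 3 days and 3372 and 3560 CPM at 6 days. MDM2 and CDK4, which NGP is known to carry in extra copies, stood at 999 to 1164 and 977 to 1230 CPM in NGP when both lines were scaled together, against 186 to 252 and 59.2 to 83.5 CPM in the 4 matching Kelly libraries. Defining markers of immune, endothelial and epithelial cells summed to at most 6.67 CPM for any of these types in any library. Of Schwann cell genes, SOX10 was at most at 1.95 CPM, and PMP22, which other cell types share, was at 13.3 to 19.6 CPM. The fibroblast list summed to 235 to 265 CPM, all but a little of it from PDGFRA and PDGFRB. In bulk RNA, fewer cells of a kind and less RNA per cell cannot be told apart.

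Between 3 and 6 days, 1772 of 14661 tested genes differed at an adjusted p under 0.05 (edgeR, quasi-likelihood F test, with p-values adjusted by the Benjamini-Hochberg method over all tested genes), which is 12.1% of genes. Of these, 787 genes (5.37%) were higher at 6 days and 985 (6.72%) were lower. The median absolute log2 change of called genes was 0.54, and 332 changed more than 2-fold, 215 of them upward and 117 downward. The median of all tested genes was 0.01. Scaling to the spike-ins moved that median to -0.15 and changed the split to 442 higher and 2092 lower. Calls of changes no larger than this shift depend on the scaling, and so did some larger ones. Of the 1772 calls, 1426 were kept with spike-in scaling, and those of NDRG1 (0.99) and MAP1LC3B (0.66) were lost.

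**Figure D1:**
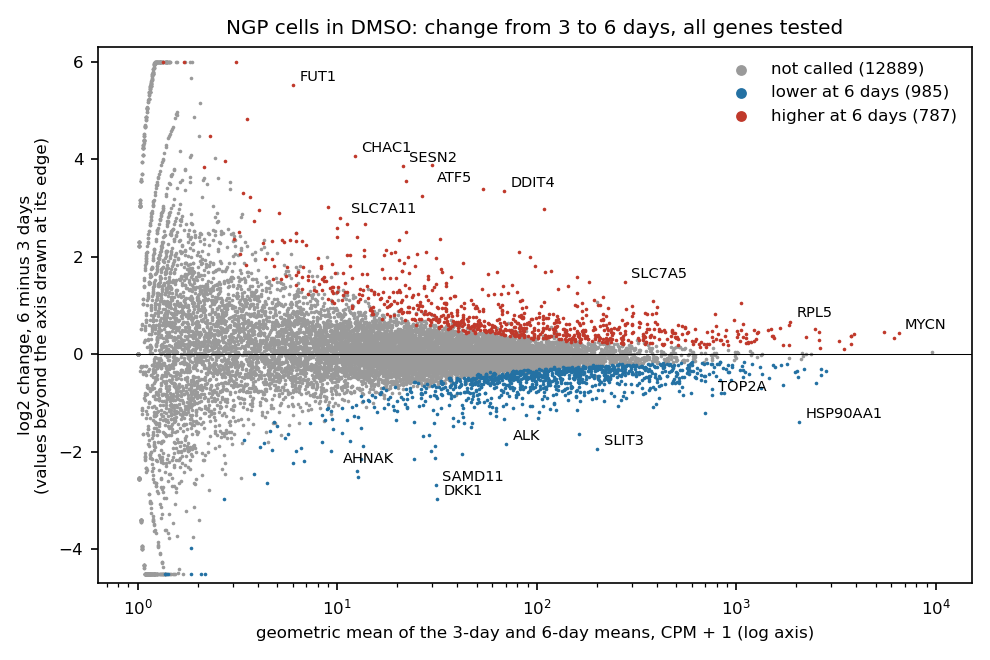
Each point is a gene; the x axis (log) is the geometric mean of its 3-day and 6-day CPM plus 1, and the y axis is the fitted log2 change at 6 days against 3 days. The 787 genes called higher (red) include CHAC1, SESN2, ATF5, DDIT4 and SLC7A11 well above zero, and the 985 called lower (blue) include DKK1, SAMD11, SLIT3 and HSP90AA1.

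The list with the largest median change was that of the integrated stress response. Of 21 ATF4 list genes in the files 20 passed the filter on low counts, and of these 17 rose, none fell and the median log2 change was 2.12. SESN2 (chr1:28259518-28282491, GRCh38), which signals leucine shortage to the growth kinase mTORC1, was at 6.00 and 4.23 CPM at 3 days and at 70.9 and 77.0 CPM at 6 days, a log2 change of 3.85 ± 0.48 (SE, adjusted p = 5.25e-10). DDIT4 (chr10:72273924-72276036), an inhibitor of mTORC1, was at 19.9 and 21.9 CPM at 3 days and at 206 and 222 CPM at 6 days, a change of 3.35 ± 0.25 (adjusted p = 3.19e-19). ATF5, a sister factor of ATF4, was at 16.5 and 15.5 CPM at 3 days and at 145 and 192 CPM at 6 days, a change of 3.40 ± 0.26 (adjusted p = 1.07e-18). In each of these genes the lowest 6-day library lay many times above the highest 3-day library. Exons of ATF5 overlap NUP62 on the opposite strand over 19.5% of their length, and without strand its reads are uncertain to that extent.

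ATF4 itself, whose control is mainly translational, went from 280 and 284 CPM to 483 and 517 CPM (log2 change 0.83 ± 0.08, adjusted p = 6.21e-13), a smaller change than that of most of its listed targets. CHAC1, which breaks down glutathione, went from 1.64 and 3.35 CPM to 43.9 and 40.2 CPM (4.07 ± 0.68, adjusted p = 2.15e-06). TRIB3, a pseudokinase that feeds back on ATF4, went from 7.25 and 4.59 CPM to 64.0 and 74.7 CPM (3.55 ± 0.53, adjusted p = 1.49e-07). DDIT3, known as CHOP and linked to cell death under lasting stress, changed by 2.51 ± 0.46 and ATF3 by 2.06 ± 0.44. The 3 listed genes that did not pass were JDP2, GDF15 and FGF21; GDF15 had 0 and 2 counts in the 3-day libraries. INHBE, a growth factor subunit outside the list, went from 6.23 and 8.31 CPM to 101 and 115 CPM (3.89 ± 0.42, adjusted p = 5.78e-12). In ATF4, CHAC1, TRIB3, ATF3 and INHBE no 3-day value overlapped a 6-day value. Genes named for size or adjusted p mostly stand apart by that choice, here and elsewhere, so this is no separate support. The share of all tested genes that stood apart is not given here.

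The genes that feed cells with amino acids were higher throughout. All 11 tested amino acid transporters rose, with a median log2 change of 1.34. SLC7A11 (chr4:138164097-138242349), which imports cystine in exchange for glutamate, was at 8.57 and 7.65 CPM at 3 days and at 84.2 and 69.1 CPM at 6 days (3.24 ± 0.28, adjusted p = 5.88e-16). SLC7A5 (chr16:87830023-87869507), the leucine transporter, was at 159 and 169 CPM at 3 days and at 444 and 475 CPM at 6 days (1.49 ± 0.09, adjusted p = 4.65e-23). SLC1A5, a glutamine transporter, went from 136 and 125 CPM to 275 and 289 CPM. The smallest changes in the list were those of the glutamine carriers SLC38A2 (0.39) and SLC38A1 (0.47).

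Enzymes that make serine, glycine and asparagine and move folate-bound carbon units followed, with 13 of 17 higher, 1 lower (MTHFD1, -0.22, not called when either 3-day library was left out) and a median of 0.90. ASNS, asparagine synthetase, was at 94.1 and 87.9 CPM at 3 days and at 283 and 266 CPM at 6 days (1.59 ± 0.11, adjusted p = 2.2e-21). PSAT1, the second enzyme of serine synthesis, went from 110 and 107 CPM to 316 and 290 CPM (1.48 ± 0.09, adjusted p = 5.57e-23). ASS1, which joins aspartate to citrulline, went from 296 and 294 CPM to 528 and 529 CPM. PHGDH, the first enzyme of serine synthesis, changed by 0.35 only. The set was uneven in size, with GPT2, an alanine transaminase, at 1.71.

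Of 18 cytosolic aminoacyl-tRNA synthetases, the enzymes that load tRNA, 14 rose and none fell (median 0.60). GARS1 for glycine went from 275 and 246 CPM to 536 and 578 CPM (1.10 ± 0.08, adjusted p = 2.22e-20). AARS1 for alanine went from 263 and 255 CPM to 433 and 503 CPM (0.85 ± 0.08, adjusted p = 1.22e-13). The members that did not pass were those for arginine (RARS1), histidine (HARS1), valine (VARS1) and lysine (KARS1), with values between -0.12 and 0.08. CARS1, for cysteine, had the largest value of the set, 1.34.

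Promoters of 3 of these genes are shown because ATF4 is known to bind a composite element there, and the 3 were picked after the values had been seen. Each run is the RefSeq window (GRCh38.p14) from 250 bases before to 50 bases after the annotated start, written 5′ to 3′ on the gene's strand, and capitals mark a match to TGATGNAAN on either strand. The windows are chr7:97872359-97872658 (minus strand) for ASNS, chr15:40953221-40953520 (plus strand) for CHAC1 and chr16:70289457-70289756 (minus strand) for AARS1.
ASNS: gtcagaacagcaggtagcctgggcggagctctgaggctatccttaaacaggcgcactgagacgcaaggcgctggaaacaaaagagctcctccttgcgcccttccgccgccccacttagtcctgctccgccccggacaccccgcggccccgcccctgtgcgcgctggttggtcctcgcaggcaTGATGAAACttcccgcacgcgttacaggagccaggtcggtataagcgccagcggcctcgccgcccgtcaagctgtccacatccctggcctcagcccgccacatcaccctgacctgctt
CHAC1: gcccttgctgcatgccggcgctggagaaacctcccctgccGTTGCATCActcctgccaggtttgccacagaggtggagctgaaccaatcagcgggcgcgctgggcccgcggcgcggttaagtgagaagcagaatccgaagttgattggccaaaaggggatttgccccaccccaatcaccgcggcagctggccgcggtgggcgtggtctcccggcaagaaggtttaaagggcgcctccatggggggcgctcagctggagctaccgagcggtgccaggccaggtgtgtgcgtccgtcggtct
AARS1: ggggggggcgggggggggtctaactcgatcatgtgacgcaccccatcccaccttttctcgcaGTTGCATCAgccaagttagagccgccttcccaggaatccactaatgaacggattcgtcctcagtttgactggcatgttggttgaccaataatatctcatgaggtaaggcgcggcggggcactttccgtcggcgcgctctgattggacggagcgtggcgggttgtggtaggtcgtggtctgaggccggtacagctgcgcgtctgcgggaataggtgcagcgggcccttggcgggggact
The match begins at position -68 from the start in ASNS (TGATGAAAC), at -210 in CHAC1 and at -188 in AARS1 (GTTGCATCA on the printed strand in both). Such a match was found in 4 of 18 promoters of the ATF4 list, 3 of 12 of the serine and asparagine list, 3 of 10 of the transporters and 6 of 14 of the synthetases for which the table holds a window. It was found in 1.76% of the 11545 promoters of tested genes and in 3.67% of all 27305 in the table.

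**Figure D2:**
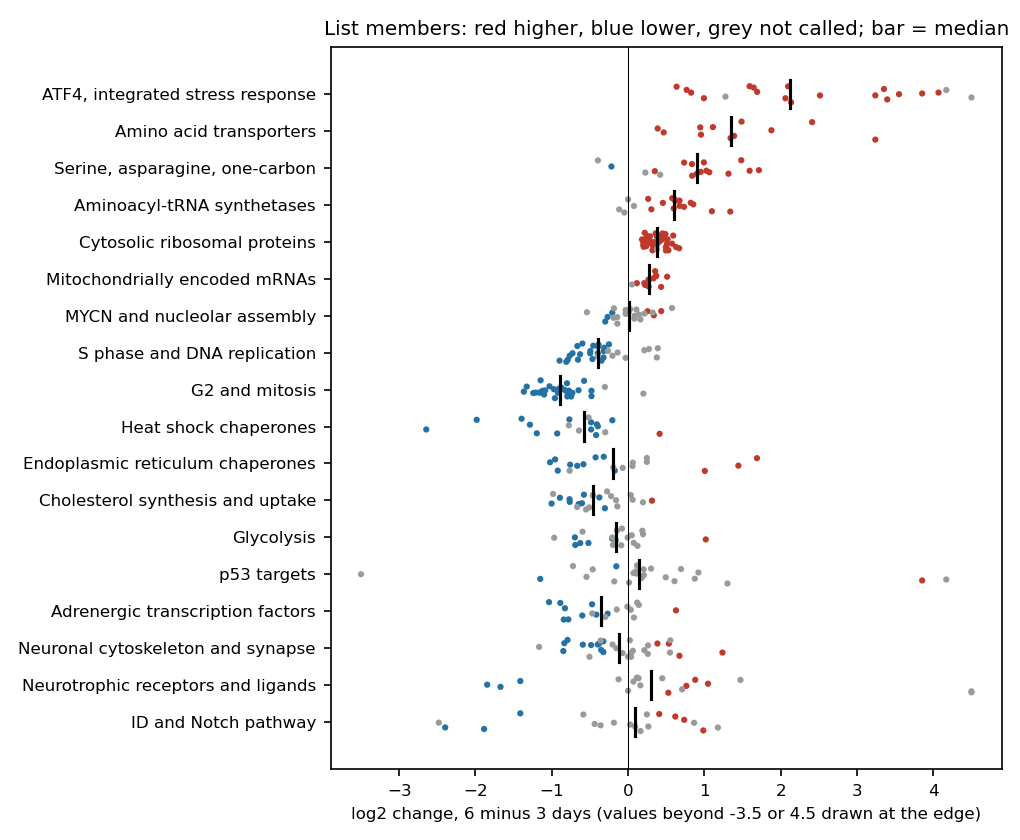
Each point is a list member and its log2 change at 6 days against 3 days (x axis); red points were called higher, blue lower and grey neither, black bars are list medians, and values past the axis are drawn at its edge. The 4 amino acid lists have medians from 0.60 to 2.12, while G2 and mitosis has a median of -0.89 and heat shock chaperones one of -0.58.

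Genes of cell division were lower at 6 days. Of 30 genes of G2 and mitosis, 28 fell and none rose, with a median log2 change of -0.89. TOP2A (chr17:40388525-40417896), the topoisomerase that untangles chromosomes, was at 1036 and 975 CPM at 3 days and at 565 CPM in both 6-day libraries (-0.83 ± 0.05, adjusted p = 4.13e-24). MKI67, the Ki-67 proliferation marker, was at 790 and 771 CPM at 3 days and at 447 and 448 CPM at 6 days (-0.80 ± 0.06, adjusted p = 1.67e-20). AURKA, a spindle kinase, had the largest decrease of the list (-1.37), and CCNB1, the mitotic cyclin B1, went from 138 and 129 CPM to 56.3 and 56.5 CPM. The members that did not pass were KIF23 (-0.30) and NUSAP1 (0.20).

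Of 30 genes of S phase and DNA replication, 21 fell and none rose, with a smaller median of -0.40. Without the first 6-day library 13 of the 30 were called lower. RRM2, which makes deoxynucleotides, went from 468 and 469 CPM to 289 and 277 CPM (-0.73 ± 0.06, adjusted p = 2.63e-16). UHRF1, which guides maintenance methylation of DNA, went from 376 and 382 CPM to 192 and 215 CPM (-0.90 ± 0.08, adjusted p = 2.86e-16). MCM4, part of the replicative helicase, went from 798 and 833 CPM to 591 and 598 CPM. The 3-day and 6-day values of these 3 genes, named for their adjusted p, did not overlap.

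Members of lists that are named without being the most significant or most abundant of their list were picked after their values had been seen. In the list of G1 regulators 4 of 18 fell and 1 rose, but without the second 3-day or the first 6-day library 2 fell. CCND1, cyclin D1, went from 598 and 634 CPM to 408 and 426 CPM (-0.56 ± 0.06, adjusted p = 1.28e-12). CDK4, its partner kinase, went from 1209 and 1220 CPM to 957 and 981 CPM (-0.33 ± 0.04), and 44.2% of its exon length is shared with TSPAN31 on the other strand. CDK6, which can replace CDK4, rose from 356 and 330 CPM to 482 and 495 CPM (0.51 ± 0.06, adjusted p = 6.13e-10). The others that fell were CDK2 (-0.47) and the inhibitor CDKN1B (-0.55). CDKN1A, the p21 inhibitor, was at 25.6 and 31.3 CPM at 3 days and 45.3 and 46.7 CPM at 6 days, without passing the test (adjusted p = 0.086).

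MYCN, the amplified oncogene, was at 5680 and 5564 CPM at 3 days and at 6544 and 8645 CPM at 6 days, a log2 change of 0.43 ± 0.06 (adjusted p = 2.06e-09). Both 6-day libraries lay above both 3-day libraries, and they differed more from each other than the 3-day libraries did. Without the second 6-day library its fitted change was 0.22, the lowest of any setting, and without the first it was 0.62. The genes of ribosome assembly in the nucleolus did not share a direction: with MYCN itself, 3 of 26 rose and 3 fell, or 1 fell without the second 3-day library. NCL, nucleolin, went from 2407 and 2439 CPM to 1871 and 2066 CPM (-0.30 ± 0.04), and ODC1, a polyamine enzyme and MYC target, from 288 and 281 CPM to 350 and 368 CPM (0.34 ± 0.07), a call lost under spike-in scaling (adjusted p = 0.184). With that scaling 1 of the 26 genes rose and 8 fell, at a median of -0.17.

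Cytosolic ribosomal protein genes formed a tight block, with 44 of 45 higher at 6 days and a median log2 change of 0.37. RPL5, of the large subunit, went from 1494 and 1458 CPM to 2330 and 2363 CPM (0.67 ± 0.04, adjusted p = 2.99e-26), the largest value in the list. RPL4 went from 1483 and 1502 CPM to 2194 and 2303 CPM (0.59 ± 0.04), and RPL3 from 1324 and 1434 CPM to 1907 and 2072 CPM (0.53 ± 0.04). With spike-in scaling 25 of 45 rose and none fell, at a median of 0.20. Ribosomal protein genes have many processed copies in the genome, and how reads from them were assigned is not given in the sources used here.

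Of the 13 mRNAs of the mitochondrial genome, which encode subunits of the respiratory chain, 12 rose with a median of 0.27. MT-ND2, a complex I subunit, went from 2035 and 2102 CPM to 3047 and 2850 CPM (0.51 ± 0.05, adjusted p = 4.86e-15). MT-CYB, of complex III, went from 3201 and 3399 CPM to 4418 and 4088 CPM (0.37 ± 0.04, adjusted p = 1.36e-13). With spike-in scaling 6 of 13 rose and 1 fell, at a median of 0.10. Nuclear genes of the same complexes did not move with them: 1 of 27 rose (ATP5F1A, 0.20) and 4 fell (NDUFA1, ATP5MC1, CYC1 and COX6C), with a median of -0.15. The calls of ATP5F1A, ATP5MC1 and COX6C were each lost when single libraries were left out, and 1 or 2 genes of the list were lower whichever of the 4 libraries was left out. With spike-in scaling 14 fell and none rose.

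In glycolysis 5 of 20 genes fell and 1 rose (median -0.15). LDHA, which turns pyruvate into lactate, went from 420 and 438 CPM to 264 and 267 CPM (-0.69 ± 0.07, adjusted p = 5.38e-14). PKM, pyruvate kinase, went from 984 and 1003 CPM to 671 and 715 CPM (-0.52 ± 0.05, adjusted p = 1.08e-14). TPI1, triosephosphate isomerase, went from 537 and 507 CPM to 336 and 340 CPM (-0.63 ± 0.06, adjusted p = 3.42e-15). PGAM1 (-0.70) and GPI (-0.21) also fell, while the upper enzymes HK1, HK2 and PFKL did not pass. ALDOC was the member that rose (1.02), and GAPDH was at 1871 and 1907 CPM and then 1720 and 1852 CPM (-0.08, adjusted p = 0.185). Spike-in scaling gave 12 lower and 1 higher.

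The hypoxia list held 3 called genes of 21, all higher: DDIT4, which is also an ATF4 target, PDK1 and NDRG1. PDK1, a kinase that inhibits pyruvate dehydrogenase, went from 31.2 and 26.7 CPM to 50.5 and 54.4 CPM (0.86 ± 0.17, adjusted p = 7.5e-05). NDRG1 went from 7.87 and 16.3 CPM to 19.6 and 28.4 CPM (0.99 ± 0.32, adjusted p = 0.0291). This call was lost with spike-in scaling, and without the first 3-day or the second 6-day library. The median of the list was 0.08, and -0.09 with spike-in scaling.

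Cholesterol synthesis and uptake was lower, with 9 of 23 genes down, 1 up and a median of -0.46. HMGCS1 (chr5:43287470-43313512), an early enzyme of the pathway, was at 167 and 175 CPM at 3 days and at 88.6 and 81.9 CPM at 6 days (-1.003 ± 0.09, adjusted p = 1e-15). FDPS, farnesyl diphosphate synthase, went from 258 and 277 CPM to 177 and 175 CPM (-0.60 ± 0.07). The groups did not overlap in either gene, both named for their adjusted p. SREBF2, the factor that drives this pathway, was the 1 gene that rose (0.31), a value that spike-in scaling left uncalled.

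In fatty acid synthesis 5 of 13 genes fell and 2 rose, but 3 fell without the second 3-day library or either 6-day library, and 1 rose whichever of the 4 was left out. ACLY, which supplies cytosolic acetyl-CoA, went from 717 and 734 CPM to 552 and 563 CPM (-0.38 ± 0.05, adjusted p = 4.34e-09), and FADS2, a desaturase, from 185 and 196 CPM to 136 and 133 CPM (-0.50 ± 0.08). SREBF1, the factor that controls many of these enzymes, rose from 87.7 and 83.6 CPM to 149 and 154 CPM (0.83 ± 0.13, adjusted p = 7.38e-07). GPAM, which starts triglyceride synthesis, was the other that rose (0.34).

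Chaperones that fold proteins in the cytosol were lower at 6 days. Of 18 heat shock genes 13 fell and 1 rose (HSPA9, a mitochondrial member, 0.41), with a median of -0.58. HSP90AA1 (chr14:102080738-102139699), the inducible HSP90, was at 3415 and 3312 CPM at 3 days and at 1291 and 1265 CPM at 6 days (-1.40 ± 0.03, adjusted p = 5.56e-52). HSPA8, the constitutive HSP70, was at 1087 and 1026 CPM at 3 days and at 474 and 448 CPM at 6 days (-1.20 ± 0.05, adjusted p = 4.53e-33). DNAJA1, a partner of HSP70, went from 375 and 357 CPM to 204 and 180 CPM (-0.93 ± 0.07, adjusted p = 2.54e-18). The spread within each duration was small beside these differences. HSPA1A and HSPA1B had the largest decreases of the list (-2.65 and -1.98), but they are near-identical copies and the split of reads between them is uncertain.

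Chaperones of the endoplasmic reticulum went both ways, with 9 of 19 lower and 3 higher. CALR, calreticulin, went from 562 and 563 CPM to 257 and 296 CPM (-1.02 ± 0.06, adjusted p = 6.84e-23). HSPA5, also called BiP, went from 309 and 294 CPM to 158 and 153 CPM (-0.96 ± 0.08, adjusted p = 9.59e-16). HSP90B1 went from 696 and 652 CPM to 416 and 380 CPM (-0.76 ± 0.06, adjusted p = 1.6e-18). The 3 that rose were the transcription factor XBP1 (1.01) and the degradation factors EDEM1 (1.44) and HERPUD1 (1.69); HERPUD1 went from 56.3 and 65.2 CPM to 202 and 190 CPM.

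Few p53 targets were called, and the shares higher and lower were close to those of all tested genes (5.37% and 6.72%). Of 24 p53 targets SESN2 rose, TP53I3 (43.7 and 42.6 to 18.5 and 20.4 CPM, -1.15 ± 0.18) and MDM2 (-0.15 ± 0.05) fell, and the median was 0.15, or -0.02 with spike-in scaling. MDM2 lost its call in 3 settings: without the first 3-day library it was -0.14 (adjusted p = 0.177), without the second 6-day library -0.09 (adjusted p = 0.458), and in a fit of the 4 libraries alone -0.15 (adjusted p = 0.0639). In the oxidative stress list, with a median of -0.43, SLC7A11 rose and 3 of 18 fell: PRDX1, a peroxidase, went from 160 and 147 CPM to 75.9 and 71.5 CPM (-1.06 ± 0.10, adjusted p = 4.04e-15), FTL, ferritin light chain, changed by -0.44 ± 0.07 and TXNRD1 by -0.32. Exons of PRDX1 share 25.2% of their length with MMACHC on the other strand.

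Genes known to respond to withdrawal of nutrients and growth factors through FOXO and MondoA factors were partly higher, with 9 of 21 up, none down and a median of 0.64. TSC22D3, a FOXO and glucocorticoid target, went from 9.74 and 11.7 CPM to 45.6 and 40.1 CPM (2.00 ± 0.29, adjusted p = 4.97e-08). TXNIP, which restrains glucose uptake, went from 39.4 and 51.9 CPM to 115 and 102 CPM (1.25 ± 0.22, adjusted p = 5.77e-06). KLHL24 went from 81.9 and 78.7 CPM to 130 and 119 CPM (0.64 ± 0.12). Between durations none of these 3, named for their adjusted p, overlapped.

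**Figure D3:**
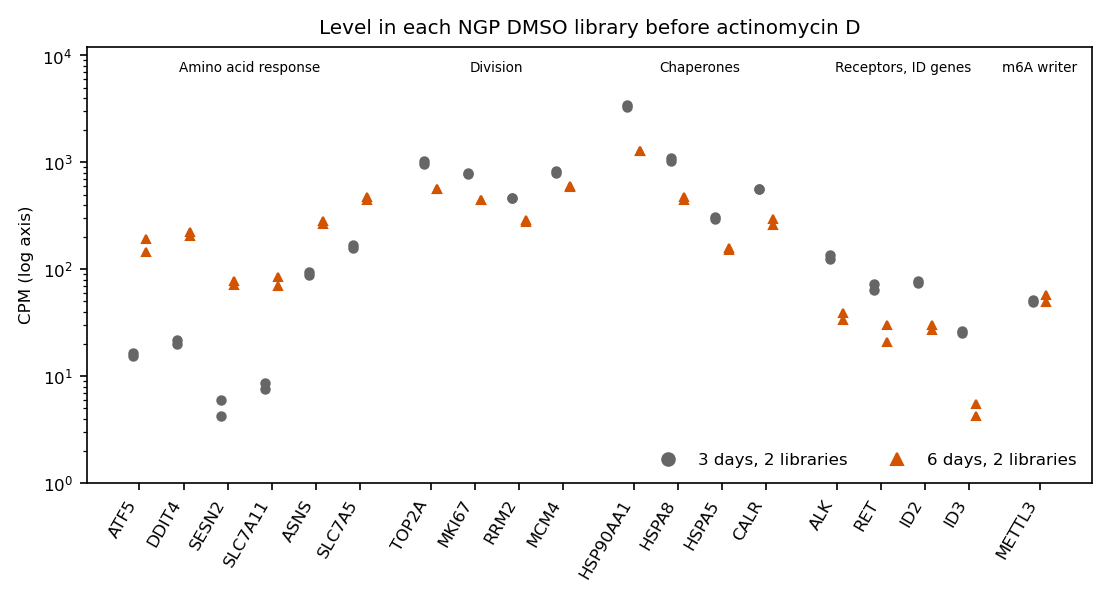
The y axis (log) is the CPM of a gene in each library; grey circles are the 2 libraries at 3 days and orange triangles the 2 at 6 days. Replicates lie close together for HSP90AA1 (3415 and 3312 against 1291 and 1265 CPM), while METTL3 overlaps between durations (51.9 and 49.8 against 49.2 and 57.4 CPM).

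The identity of the cells was described by the adrenergic transcription factors. Of 18, 9 fell and 1 rose, with a median of -0.36. GATA2 went from 290 and 247 CPM to 143 and 147 CPM (-0.89 ± 0.13, adjusted p = 6.03e-08), TBX2 from 223 and 235 CPM to 127 and 128 CPM (-0.84 ± 0.11, adjusted p = 4.37e-09) and HAND2 from 1281 and 1262 CPM to 878 and 955 CPM (-0.47 ± 0.05, adjusted p = 6.61e-11). GATA3, of the same circuit, fell by 0.27 on the log2 scale. INSM1, a factor of neuroendocrine differentiation, rose by 0.63.

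Genes of catecholamine handling did not share a direction, with 3 of 19 higher and 3 lower. SLC6A2, the noradrenaline transporter, went from 47.8 and 45.9 CPM to 19.4 and 24.2 CPM (-1.11 ± 0.18, adjusted p = 1.53e-06), and DDC, which makes dopamine, changed by -0.47 ± 0.12. The granule proteins split: CHGA fell (-0.27 ± 0.05) while CHGB (0.25 ± 0.06), SCG3 (0.33) and CPE (0.39 ± 0.09) rose. With spike-in scaling none of the list was higher and 4 were lower (median -0.39), so the calls of CHGB, SCG3 and CPE were lost. That of CPE was also lost without the second library of either duration. TH, the first enzyme of the pathway, had at most 1.17 CPM in any of the 4 libraries.

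Of 30 genes of the neuronal cytoskeleton and synapse 10 fell and 4 rose. NEFH, the heavy neurofilament, went from 713 and 734 CPM to 416 and 395 CPM (-0.84 ± 0.06, adjusted p = 1.03e-19). ELAVL4, a neuronal RNA-binding protein, went from 202 and 217 CPM to 136 and 96.0 CPM (-0.85 ± 0.09, adjusted p = 1.15e-11), and GAP43, a growth cone protein, from 87.7 and 97.5 CPM to 45.9 and 61.1 CPM (-0.79 ± 0.11). Those that rose included MAPT, the tau gene (14.6 and 17.1 to 36.1 and 38.8 CPM, 1.24 ± 0.23), CNTN1 (0.53) and SV2A (0.38).

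Receptors for growth factors changed in opposite ways. ALK (chr2:29192774-29921586), a receptor kinase and neuroblastoma oncogene, was at 125 and 137 CPM at 3 days and at 33.6 and 39.4 CPM at 6 days (-1.85 ± 0.12, adjusted p = 5.57e-23). RET (chr10:43077064-43130351), the receptor of the GDNF family, was at 63.4 and 73.6 CPM at 3 days and at 30.3 and 21.0 CPM at 6 days (-1.41 ± 0.14, adjusted p = 3.38e-13). GFRA2, a co-receptor of RET, went from 43.9 and 48.2 CPM to 14.8 and 14.1 CPM (-1.67 ± 0.20). Against these 3 that fell, 4 of the 18 neurotrophic genes rose: IGF2, NGFR, ERBB4 and the co-receptor GFRA1. NGFR, the low-affinity neurotrophin receptor, went from 119 and 129 CPM to 217 and 240 CPM (0.88 ± 0.11). IGF2, a growth factor, went from 719 and 758 CPM to 1403 and 1649 CPM (1.05 ± 0.06, adjusted p = 2.32e-26), but 70.7% of its exon length is shared with the neighbouring model AC132217.2 on the same strand, so its level is uncertain.

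The ID genes, which encode inhibitors of differentiation that answer to BMP signals, fell in 3 of 4 cases. ID2 went from 74.8 and 77.0 CPM to 29.8 and 27.1 CPM (-1.41 ± 0.22, adjusted p = 3.49e-07), ID3 from 25.1 and 26.3 CPM to 4.23 and 5.53 CPM (-2.40 ± 0.52, adjusted p = 0.000291) and ID1 from 23.2 and 24.1 CPM to 7.10 and 5.66 CPM (-1.89 ± 0.49, adjusted p = 0.00368). ID4 did not pass (-0.59). In the same list of 19, the Notch genes NOTCH1, DLK1, JAG2 and HES6 rose (2 of the list without the second 6-day library), NOTCH1 from 36.4 and 32.9 CPM to 65.5 and 71.7 CPM (0.99 ± 0.21) and DLK1 from 235 and 246 CPM to 291 and 348 CPM (0.41 ± 0.07).

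Matrix genes went both ways. The collagens COL5A1 (14.1 and 17.1 to 43.5 and 51.9 CPM, 1.61 ± 0.20), COL6A1 (85.2 and 88.9 to 133 and 158 CPM, 0.74 ± 0.10) and COL6A2 (68.1 and 75.2 to 112 and 126 CPM, 0.73 ± 0.11) rose, and LAMB1 rose by 0.25. The basement membrane collagens COL4A1 (-0.69) and COL4A2 (-0.26) and the integrin ITGB1 (-0.23) fell, so that 4 of 21 rose and 3 fell, or 1 fell without the second 3-day library. Spike-in scaling gave 3 higher and 9 lower.

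Outside these lists, the largest decreases among genes of at least 5 CPM were led by DKK1, SAMD11 and ISLR2. DKK1 (chr10:52314281-52318042), a secreted Wnt inhibitor, was at 86.8 and 83.0 CPM at 3 days and at 12.2 and 9.28 CPM at 6 days (-2.98 ± 0.26, adjusted p = 6.35e-16). SAMD11 went from 76.0 and 74.7 CPM to 10.3 and 13.2 CPM (-2.69 ± 0.20, adjusted p = 4.23e-19), with 9.08% of its exons overlapping NOC2L. ISLR2, a neuronal membrane protein, went from 30.2 and 24.9 CPM to 5.48 and 4.01 CPM (-2.53 ± 0.27, adjusted p = 2.8e-12). In all 3 the 6-day libraries lay well under the 3-day libraries. AHNAK, a giant scaffold protein, went from 47.5 and 49.4 CPM to 11.8 and 10.1 CPM (-2.14 ± 0.18, adjusted p = 9.32e-17), and LIX1, LBX2 and CHST15, with changes of -2.23, -2.19 and -2.15, were the others beside ID3. The 6-day libraries differed from each other in LIX1 (0.868 and 3.56 CPM) and in CHST15 (3.69 and 7.63 CPM), but stayed under the 3-day libraries in both. The largest increase among called genes of at least 5 CPM was FUT1, a fucosyltransferase, with 11 and 2 counts (0.857 and 0.146 CPM) at 3 days and 17.6 and 28.4 CPM at 6 days (5.51 ± 0.92, adjusted p = 2.53e-06), and DESeq2 did not call it (adjusted p = 0.672).

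A further set was named because its change differed most clearly between treatments or lines, by the adjusted p of that difference. SLIT3 (chr5:168661733-169301129), a secreted repellent, was at 400 and 387 CPM at 3 days and at 95.3 and 108 CPM at 6 days (-1.95 ± 0.08, adjusted p = 1.46e-35). UNC5B, a netrin receptor, went from 163 and 153 CPM to 207 and 261 CPM (0.57 ± 0.10, adjusted p = 4.59e-06). DDR2, a collagen receptor kinase, went from 287 and 285 CPM to 578 and 546 CPM (0.98 ± 0.07, adjusted p = 9.25e-21). EML5 went from 562 and 556 CPM to 250 and 275 CPM (-1.09 ± 0.06), with 53.1% of its exons shared with ZC3H14 on the other strand.

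The same durations were next compared in the NGP DMSO libraries taken after actinomycin D, which are separate libraries from those above. The labels do not say whether they came from the same cultures. After 3 h, 2429 genes (16.6%) differed between 6 and 3 days, 1081 higher (7.37%) and 1348 lower (9.19%). After 6 h it was 2748 genes (18.7%), 1143 higher (7.80%) and 1605 lower (10.9%). Of the 787 genes higher at 0 h, 763 had the same sign and 581 were called in the same direction after 3 h, and 670 and 410 after 6 h. Of the 985 lower, the counts were 973 and 772 after 3 h and 930 and 681 after 6 h. Over both directions, 76.4% were called with the same sign after 3 h and 61.6% after 6 h.

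After 6 h the ATF4 list was much closer to zero change, with a median of 0.27 against 1.97 after 3 h and 2.12 before the drug. SLC7A11 had a 6 versus 3 day log2 change of 2.72 after 3 h and of -0.04 after 6 h (adjusted p = 1.6e-13 and 0.96). CHAC1 had 3.22 and -1.57 (adjusted p = 0.00027 and 0.14), and SESN2 2.76 and 0.15. DDIT4 still had a change of 1.91 after 6 h. Levels of CHAC1, SESN2 and DDIT4 after 6 h were near the floor. CHAC1 was at 1.62 and 1.22 CPM at 3 days and 0.87 and 0 CPM at 6 days. SESN2 was at 1.04 and 1.44, then 2.40 and 0.14 CPM, and DDIT4 at 0.75 and 1.22, then 3.22 and 4.13 CPM. At so few CPM the 6 h changes of these genes carry wide errors. SLC7A11 stood higher after 6 h, at 10.3 and 16.3, then 15.4 and 10.2 CPM. ASNS, of the ATF4 list, was at 146 and 135, then 138 and 131 CPM, a change of -0.07. In that list 6 of 20 genes were called higher after 6 h and 2 lower, against 7.80% and 10.9% of all tested genes. ATF4 itself was lower after 3 h (-0.40, adjusted p = 0.00022) and higher after 6 h (0.50, adjusted p = 3e-06). The transporters went from a median of 1.58 after 3 h to 0.01 after 6 h, and the synthetases from 0.51 to -0.17. Whether these medians differ between actinomycin D times was not tested.

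Genes of division stayed lower at each time. The median of the G2 and mitosis list was -0.93 after 3 h and -0.81 after 6 h, with 28 and 27 of 30 lower. HSP90AA1 differed by -1.42 after 3 h and -0.82 after 6 h, and ALK by -1.84 and -1.86. The ribosomal protein list had medians of 0.39 and 0.33, with 43 and 42 of 45 higher. Mitochondrial mRNAs did not keep their direction after 3 h, where 1 of 13 was higher and 3 were lower, while after 6 h 8 were higher and none lower (median 0.14). The cholesterol list turned from a median of -0.46 before the drug to 0.29 after 6 h, where 7 of 23 were higher and 1 lower.

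**Figure D4:**
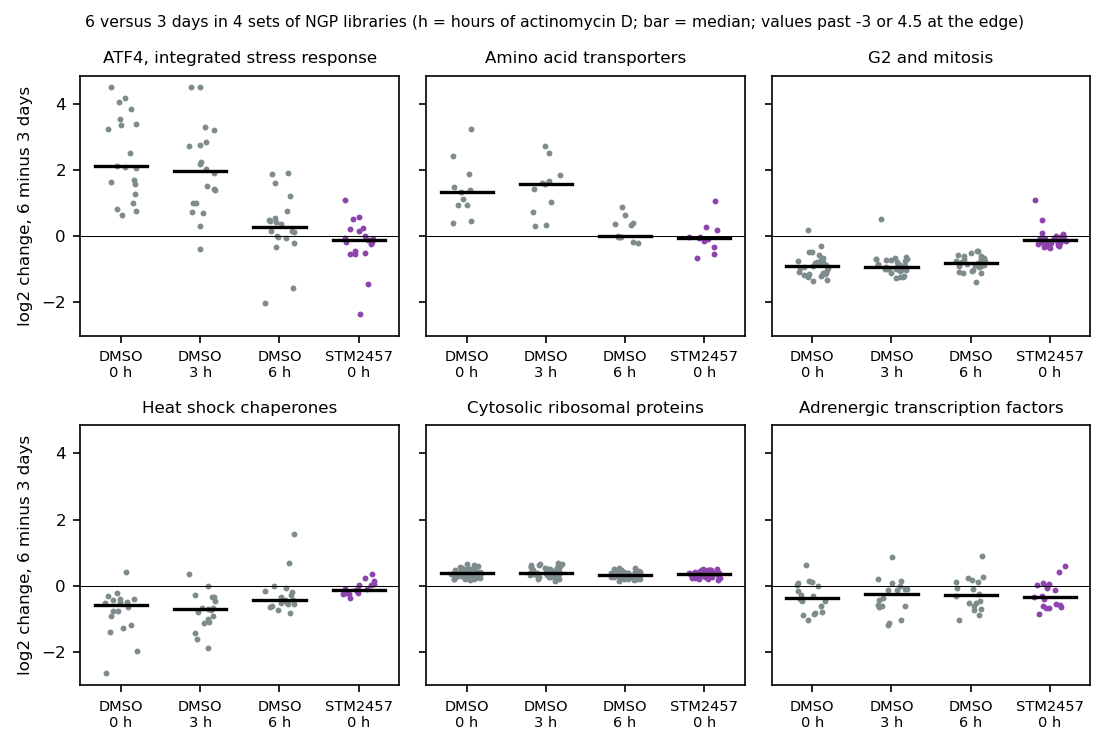
Each panel is a gene list; points are members, the y axis is the log2 change at 6 days against 3 days, with medians as black bars and values past the axis at its edge, for DMSO libraries at 0, 3 and 6 h of actinomycin D (grey) and STM2457 libraries at 0 h (purple). The ATF4 list drops from a median of 2.12 to 0.27 over the 3 DMSO sets and stands at -0.12 with STM2457, while ribosomal proteins stay between 0.33 and 0.39 in all 4 sets.

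In NGP cells kept in STM2457, fewer genes differed between 6 and 3 days: 803 (5.48%), 465 higher (3.17%) and 338 lower (2.31%), against 1772 in DMSO. The 2 changes themselves differed for 410 genes (2.80%), with the STM2457 change above the DMSO change in 257 (1.75%) and below it in 153 (1.04%). In the ATF4 list 15 of 20 genes had a smaller change with STM2457, whose median there was -0.12. SESN2 changed by -0.18 with STM2457, a difference of -4.03 ± 0.64 (adjusted p = 3.9e-06), and DDIT4 by -0.08, a difference of -3.43 ± 0.34 (adjusted p = 1.1e-12). SLC7A5 changed by -0.32, a difference of -1.81 ± 0.13 (adjusted p = 7e-19).

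Of the G2 and mitosis list 25 of 30 genes had a smaller decrease with STM2457 (median -0.11), and of the heat shock list 10 of 18. HSP90AA1 fell by 0.38 on the log2 scale with STM2457, a difference of 1.02 ± 0.04 (adjusted p = 3.5e-32). CDK4 differed by 0.23 ± 0.06 (adjusted p = 0.02). The 45 ribosomal protein genes had a median of 0.37 in either treatment, with 43 higher in STM2457 and 44 in DMSO. MYCN rose with STM2457 as well (0.60 against 0.43, adjusted p of the difference = 0.41). DKK1 and SAMD11 changed by -3.12 and -2.58 with STM2457, with differences of -0.14 ± 0.35 and 0.11 ± 0.27 that did not pass. The differences of SLIT3, EML5, DDR2 and UNC5B were 0.96, 0.41, -1.40 and -1.96. These genes were named by the adjusted p of a difference between treatments or lines. SLC7A5 and HSP90AA1 were named by it as well, so a passing difference was partly set by that choice.

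In Kelly cells in DMSO, 1354 of 17343 genes (7.81%) differed between 6 and 3 days in a joint fit of both lines, and 507 (2.92%) differed in this change between the lines. Of the former, 482 were higher (2.78%) and 872 lower (5.03%), and of the latter the NGP change was above the Kelly change in 300 (1.73%) and below it in 207 (1.19%). The changes below are from that joint fit. The ATF4 list had a median of 0.47 in Kelly against 2.13 in NGP, with 2 of 20 genes called higher in Kelly and 9 changing more in NGP. SESN2 changed by 3.87 in NGP and 0.12 in Kelly, a difference of 3.75 ± 0.64 (adjusted p = 2.9e-05). SLC7A11 changed by 3.26 and -0.17, a difference of 3.42 ± 0.37 (adjusted p = 1.3e-10). DDIT4 rose in both lines, by 3.37 and 1.06, and the difference of 2.31 ± 0.49 passed (adjusted p = 0.0011). The median of the transporters was -0.16 in Kelly, and 7 of 11 changed more in NGP.

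Division genes were lower at 6 days in both lines, but not evenly. In G2 and mitosis the median was -0.87 in NGP and -0.40 in Kelly, with 12 of 30 genes falling further in NGP. In S phase it was -0.38 and -0.66, with 7 of 30 falling further in Kelly. Ribosomal proteins were higher in both, with medians of 0.39 and 0.19 and 10 of 45 changing more in NGP. MYCN rose by 0.45 in NGP and fell by 0.35 in Kelly (0.80 ± 0.09, adjusted p = 8.2e-10), and IGF2 rose by 1.06 and fell by 0.41 (1.47 ± 0.10, adjusted p = 7.4e-19). DKK1 changed by -2.96 and -2.93 and ISLR2 by -2.51 and -2.44, without a called difference. AHNAK fell by 2.12 in NGP and was at 0.27 in Kelly (-2.39 ± 0.22, adjusted p = 3.9e-13).

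**Figure D5:**
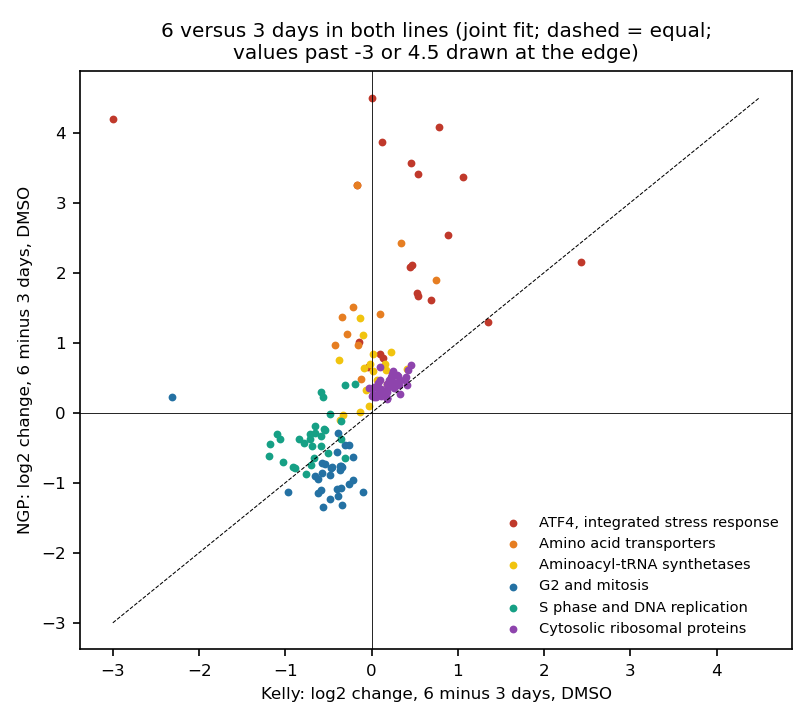
Each point is a member of 1 of 6 lists, with its log2 change at 6 days against 3 days in Kelly (x axis) and NGP (y axis), both in DMSO, with values past the axes drawn at the edge; the dashed line marks equal changes. Most amino acid genes (red, orange, yellow) lie above the line, ribosomal proteins (purple) sit near it in the upper right, and mitotic genes (blue) apart from NUSAP1 lie below zero in both lines, with medians of -0.87 in NGP and -0.40 in Kelly.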

How the data were processed

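Poly(A) RNA of 48 libraries was counted as fragments. The deposited counts are raw and were made by the authors with featureCounts at exon level by gene name, per the file headers, over 19923 gene names (GENCODE 33) and 92 ERCC sequences; no strand option is named. FastQC 0.11.5, Trimmomatic 0.36, HISAT2 2.1.0, Subread 1.5.3 and GRCh38 are given in the submitters' processing notes. The 24 NGP libraries held 11139550 to 21942238 fragments. Genes passing edgeR's filterByExpr (minimum count 10, total 15) were fitted over the 12 NGP groups with TMM scaling by edgeR 4.0.16 (quasi-likelihood test, Benjamini-Hochberg adjustment, threshold 0.05), and all 48 libraries jointly for Kelly. SE was derived from each log2 change and its F statistic. The fit was tested on simulated data.

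The members and gene lists were chosen with earlier results of these data known. Genes named are the 8 largest changes in each direction of at least 5 CPM, up to 3 of smallest adjusted p per list, 5 reference genes, and those with the smallest adjusted p of a difference between lines or treatments. Replicate numbers did not pair libraries by their deviations (r = 0.0272 over 9363 genes, across genes). Alternatives were other scalings, filters, DESeq2 1.42.0, limma 3.58.1 (voom), fewer libraries, a replicate block and leaving out libraries. Some genes that the rule names are not reported here.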

Additional observations from a re-analysis of the deposited data

Results flagged for a closer look

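The change from 3 to 6 days differed between STM2457 and DMSO for 410 genes by a test of the difference itself in edgeR. Among the named genes, the STM2457 change minus the DMSO change was -5.53 for CHAC1, -4.03 for SESN2, -3.79 for SLC7A11, -3.51 for ATF5, -3.43 for DDIT4, -3.20 for INHBE, -2.45 for TRIB3 and -1.81 for SLC7A5 on the log2 scale. It was -1.96 for UNC5B and -1.40 for DDR2, and it was 1.02 for HSP90AA1, 0.96 for SLIT3, 0.41 for EML5 and 0.23 for CDK4. SLC7A5, UNC5B, DDR2, HSP90AA1, SLIT3 and EML5 were named by the adjusted p of a difference between treatments or lines.

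The change differed between NGP and Kelly for 507 genes by the same kind of test. Genes named by the adjusted p of such differences are again among those listed. The NGP change minus the Kelly change was 3.75 for SESN2, 3.42 for SLC7A11, 2.87 for ATF5, 2.31 for DDIT4 and 1.72 for SLC7A5. It was 1.47 for IGF2, 1.36 for UNC5B, 0.80 for MYCN and 0.63 for DDR2. It was -2.39 for AHNAK, -1.72 for CHST15, -1.23 for SLIT3, -1.15 for EML5 and -0.73 for HSP90AA1.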

How the results depend on the processing

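Other scalings, filters and tools gave 1693 to 2229 called genes against 1772, apart from spike-in scaling. With spike-in scaling 442 genes were higher and 2092 lower at 0 h; 3848 were called after 3 h (540 higher, 3308 lower) and 5498 after 6 h (344 and 5154), 102 and 267 for the treatment difference, and 3254 (70 and 3184) for the line difference. DESeq2 called 660 treatment differences, 459 of them above. The 8 NGP libraries at 0 h alone gave 235 treatment differences below. Leaving out single libraries gave 1242 to 1385 genes at 0 h (537 to 634 higher, 705 to 789 lower), 1736 to 1980 after 3 h (752 to 906, 984 to 1074), 2074 to 2389 after 6 h (915 to 1002, 1072 to 1389), 325 to 397 treatment differences (194 to 257, 122 to 148) and 421 to 473 line differences (240 to 283, 171 to 190). With a replicate block 1813 genes were called, 1766 of them shared with those called without it, although the numbers did not pair the libraries.

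Of 1664 values of named genes under these settings none reversed, and 40 lost their call, over 14 of 105 called genes. Of lists whose median lay beyond its spread between replicates, hypoxia (-0.094) and p53 (-0.024) changed sign with spike-in scaling. Medians within that spread also changed sign with it, those of ID and Notch (0.093 to -0.062) and interferon (0.10 to -0.082). The same held for lysosome (0.025 to -0.15), mesenchymal (0.008 to -0.12) and MYCN with nucleolar assembly (0.006 to -0.17). The catecholamine list turned to 0.13 with a minimum count of 50 and 0.062 with limma-voom, and ranged from -0.18 to 0.033 without single libraries. Relative to all genes it was 0.12, 0.061 and -0.19 to 0.028. The Schwann list, of 5 genes, turned relative to all genes to 0.19 with a minimum count of 50 and ranged from -0.24 to 0.21 without single libraries. The cause was not tested. With 2 libraries a group, changes of genes at a few CPM carry the widest errors.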

Other observations

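Over all tested genes 5.37% were called higher and 6.72% lower at 6 days, and the counts below stand beside those shares. Of 18 genes of the m6A machinery 4 fell and none rose, or 2 fell without the first library of either duration: IGF2BP1, an m6A reader that stabilises mRNA, went from 793 and 802 CPM to 560 and 538 CPM, and IGF2BP3 (-0.37), RBM15 (-0.45) and ZC3H13 (-0.36) were the others. RBM15 lost its call without the first 3-day library (adjusted p = 0.12) and the first 6-day library (adjusted p = 0.057). METTL3, the writer itself, was at 51.9 and 49.8 CPM at 3 days and at 49.2 and 57.4 CPM at 6 days (0.07 ± 0.15, adjusted p = 0.902). The groups overlapped in METTL3 and were apart in IGF2BP1, which was named for its adjusted p.

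Of 22 immediate early genes 3 rose: ATF3, JUN (42.0 and 45.9 to 81.2 and 99.5 CPM) and ARC (1.45). DESeq2 did not call ARC (adjusted p = 0.073). Of 27 lysosome and autophagy genes, WIPI1 (2.34) and MAP1LC3B (0.66) rose and GRN (-0.41) and LAMP1 (-0.40) fell. All these lysosome and autophagy calls were lost without the second 3-day library. Those of WIPI1 and MAP1LC3B were also lost without the first 3-day or the second 6-day library. GRN lost its call whichever of the 4 libraries was left out and with limma-voom, and LAMP1 also without the first 6-day library. MAP1LC3B was not called with spike-in scaling. Of 15 retinoid genes CRABP1 rose (1.40). Of 14 mesenchymal genes SNAI2 (-1.99), FN1 (-0.73) and TWIST1 (-0.57) fell and none rose.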
